A study of Mus musculus with 2 samples.

Results

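Chemokine receptors of leukocytes were examined in macrophages sorted from the mouse colon, as 9 genes taken by symbol: Cxcr1, Cxcr2, Cxcr4, Ccr1, Ccr2, Ccr7, Cx3cr1, Ccrl2 and Ackr3. Each had 1 probe set (a group of array probes read as a single value) that names it alone, so 9 of the 19938 genes with a probe set of their own are described. The control group was lamina propria macrophages of mice given drinking water for 5 days, and the DSS group was the same sorted population from mice given 3% (wt/vol) dextran sulfate sodium in the water for 5 days. DSS is a polymer that damages the colon lining and is used to induce colitis. Both groups were sorted as CD45+IAb+CD11b+F4/80+CD103-, and 100 ng of total RNA per sample was amplified and labelled with biotin. The labels give no strain, age, sex or number of mice behind an array. Each group had 1 array, so no value below has a replicate error, there was no test, and every difference is between 2 arrays rather than between conditions.

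Chemokine receptors are G protein-coupled receptors that steer leukocytes along gradients of small secreted proteins, the chemokines. In the myeloid lineage, Cxcr2 draws neutrophils out of the blood, Ccr2 is needed for inflammatory monocytes to leave the bone marrow and enter tissue, and Cx3cr1 marks monocyte-derived macrophages of the healthy gut. Atypical members such as Ackr3 bind chemokines without the usual G protein signal and shape gradients by taking ligand up. Ccrl2 also lacks the usual signal and presents the chemoattractant chemerin to other cells.

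Of the 9 receptors, 8 were at or above the array median on at least 1 array, which is the signal rule used for counting, and 3 of these were at least 2-fold higher on the DSS array (Cxcr2, Ccr2 and Cxcr1). None was at least 2-fold lower. As background, 3.99% of the 11163 counted genes were higher by this size and 3.03% were lower. At 1.5-fold, 6 receptors were higher, against 9.85% of all genes, and 1 (Cx3cr1) was lower, against 8.8%. The median log2 difference (DSS minus control) over the 8 receptors was 0.87, beside -0.03 over all genes past the rule. Cxcr1 and Cxcr2 passed the rule through the DSS array alone, which favours a higher value there, so these counts and the median describe the arrays and support nothing further.

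The array medians were 5.70 (control) and 5.62 (DSS) on the log2 scale, and the robust SD of the differences over all counted genes was 0.39. The pooled SD between probe sets of the same gene was 0.28, over 641 genes, and covers probe noise only. Of the antigens of the sort, Ptprc (CD45), H2-Ab1 (IAb), Itgam (CD11b) and Adgre1 (F4/80) had RNA signals above the median on both arrays. Their differences were 0.40, 0.14, 0.60 and -0.82. Itgae (CD103) was below both medians at 4.89 and 4.91. These RNA signals do not measure the purity of the sort, which was not tested. The difference of H2-Ab1 was -0.04 after loess centring. All 10 measured neutrophil markers were at least 2-fold higher on the DSS array, with a median difference of 4.12. Their mean log2 signal was 6.64 on the control and 10.87 on the DSS array. Of 8 measured monocyte markers, 7 were at least 2-fold higher, with a median of 3.74 and mean log2 signals of 7.61 and 10.74. Of 12 resident macrophage markers, 7 were at least 2-fold lower, with a median of -2.18 and mean log2 signals of 10.61 and 8.35. In bulk RNA, a change in the number of cells of a type cannot be told apart from a change in RNA per cell.

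**Figure D1:**
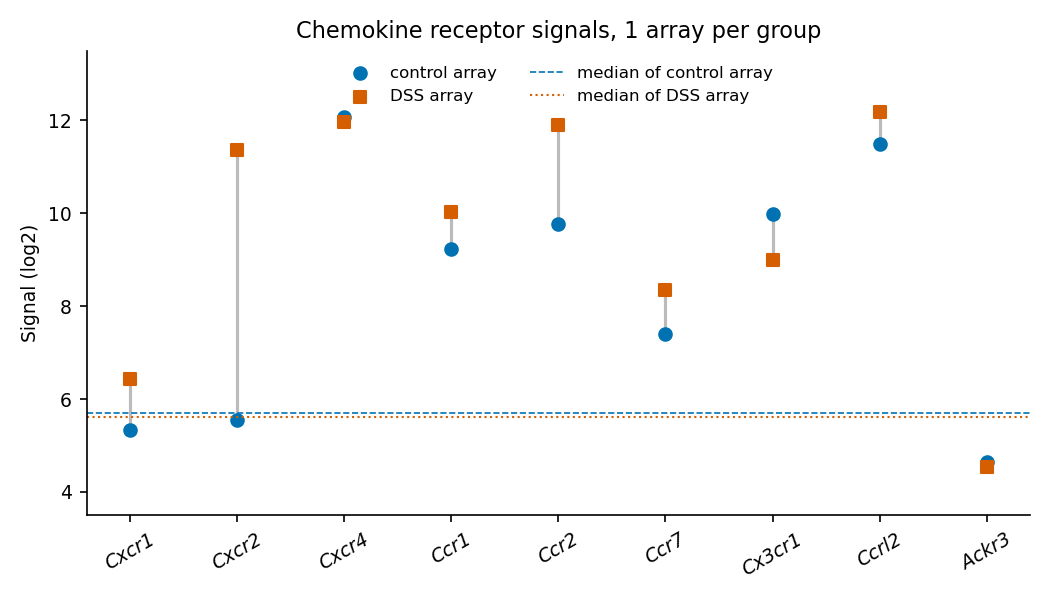
Log2 signal (y axis) of the 9 receptors (x axis) on the control array (circles) and the DSS array (squares), with the median of each array as a horizontal line. Cxcr2 moves from 5.55 to 11.37, Cx3cr1 is the lower receptor that comes closest to 2-fold, and Ackr3 lies under both medians. There is 1 array per group, so no error bars are drawn.

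The promoter windows of the 3 receptors that were at least 2-fold higher and of Cx3cr1, the receptor furthest in the lower direction, are shown to let their sequences be compared. They are the 250 bases before the annotated start, from RefSeq on GRCm38.p6, which held a window for 8 of the 9 receptors (not Ccr7). Capitals mark letters that match a motif searched on both strands: GAGGAA for the PU.1 core, TTGCNNAA for C/EBP, ACGTG for the hypoxia response element core, GGGNNTTCC for NF-kB, GAAANNGAA for interferon regulatory factors and CACCC for KLF factors.
Cxcr2, chr1:74153744-74153993, plus strand: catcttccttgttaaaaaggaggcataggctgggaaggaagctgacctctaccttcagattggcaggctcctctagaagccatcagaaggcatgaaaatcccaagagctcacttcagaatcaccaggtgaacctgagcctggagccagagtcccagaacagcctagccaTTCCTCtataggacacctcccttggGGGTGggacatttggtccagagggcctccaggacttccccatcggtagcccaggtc
Cxcr1, chr1:74194632-74194881, minus strand: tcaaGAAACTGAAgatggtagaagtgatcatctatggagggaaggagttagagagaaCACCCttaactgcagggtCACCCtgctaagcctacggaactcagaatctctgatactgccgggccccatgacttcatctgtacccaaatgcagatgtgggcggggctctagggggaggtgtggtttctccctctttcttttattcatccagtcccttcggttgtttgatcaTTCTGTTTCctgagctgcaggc
Ccr2, chr9:124101933-124102182, plus strand: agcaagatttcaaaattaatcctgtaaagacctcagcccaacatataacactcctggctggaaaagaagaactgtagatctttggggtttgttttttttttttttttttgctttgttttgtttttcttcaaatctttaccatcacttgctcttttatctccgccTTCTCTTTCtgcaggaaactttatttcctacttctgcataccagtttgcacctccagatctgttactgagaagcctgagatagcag
Cx3cr1, chr9:120068297-120068546, minus strand: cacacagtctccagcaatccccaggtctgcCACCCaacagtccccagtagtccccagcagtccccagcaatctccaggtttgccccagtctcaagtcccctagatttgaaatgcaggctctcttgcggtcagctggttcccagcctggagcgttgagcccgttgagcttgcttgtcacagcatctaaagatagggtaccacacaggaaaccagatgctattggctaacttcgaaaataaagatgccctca

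The windows of the neighbouring genes Cxcr2 and Cxcr1 shared no motif other than KLF, which 4 of the 8 receptor windows and 52.0% of all 32851 promoter windows of the same length hold. Cxcr2 had 1 PU.1 core, found in 23.3% of all windows and in 2 of the 8 (Cxcr2 and Ccr1). Cxcr1 had 2 matches and Ccr2 had 1 match to the interferon regulatory factor motif, which 7.13% of all windows hold. Cx3cr1 had a single KLF match. A C/EBP match was found in 1 receptor window (Ackr3), against 9.56% of all windows. Ccrl2 has 3 annotated starts, and these counts use the first listed, whose window had the hypoxia response element core and the NF-kB motif, held by 16.6% and 4.98% of all windows. The windows of its other starts also had the hypoxia response element core, with no NF-kB match and 2 KLF matches each. Neither motif of the first window was found for the other 7 receptors. A match is a run of letters and not a bound site.

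The largest difference among the described receptors was that of Cxcr2, which binds neutrophil-attracting CXC chemokines. Cxcr2 (probe set 10347291), the main receptor for these ligands on mouse neutrophils, read 5.55 in control and 11.37 in DSS. The control value lay just under that array's median and the DSS value far above its own, a difference of 5.82 or 56.4-fold, and 7 of 11163 genes, Cxcr2 included, were that far up or further. Without detection calls a signal under the median cannot be told from background, so the fold is not exact. With signals under an array's median set to that median, it was 50.6-fold.

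Cxcr1 (probe set 10355550), a paralogue of Cxcr2 and its neighbour on chromosome 1, read 5.32 and 6.44. It lay under the control median and above the DSS median, with a difference of 1.12 or 2.17-fold. With the control value set to the array's median the difference was 0.74, and Cxcr1 no longer reached 2-fold. The next gene beyond Cxcr2, Rufy4, had a difference of 0.30, and the next beyond Cxcr1, the actin regulator subunit gene Arpc2, one of 0.31. Both Cxcr1 and Cxcr2 were higher beside the neutrophil marker median of 4.12, and the part of neutrophil RNA in their values was not tested. The gate included IAb and F4/80, and the purity of the sorted cells was not tested here. Individual neutrophil markers had differences from 1.20 (Mmp9) to 6.65 (Mmp8). Cxcr2 lay well within this range, and also within that of the monocyte markers (-1.88 to 5.90). Cxcr1 at 1.12 lay just under the neutrophil range, and its order with Mmp9 turned under loess centring (1.23 for Cxcr1 and 1.15 for Mmp9). Ly6g, the defining surface antigen, read 4.04 on the control and 10.01 on the DSS array.

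The genes with differences nearest to that of Cxcr2 over the 2 arrays were Saa3, an acute-phase apolipoprotein, Chil3, a chitinase-like lectin, and Ngp, a neutrophil granule protein. Their differences were 5.85, 5.90 and 5.71. Chil3 and Ngp, like Cxcr2, were under the median on the control array, and the order depends on those dim signals. With signals under an array's median set to it, the nearest were Mmp8, Chil3 and Saa3, and Ngp was not among the 3.

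Ccr2 and Cx3cr1, the receptors commonly used to follow monocytes into gut macrophages, differed in opposite directions. Ccr2 (probe set 10590631), the receptor for Ccl2, Ccl7 and Ccl12, read 9.77 on the control and 11.90 on the DSS array. Both values were above the medians, and the difference of 2.13 (4.39-fold) was reached or passed by 112 genes, or 1.0% of those counted. Ccr2 is therefore the receptor at 2-fold or more whose fold does not start from a signal under the median.

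Cx3cr1 (probe set 10597743), the receptor for the membrane-bound chemokine fractalkine, read 9.99 on the control and 8.996 on the DSS array. The difference of -0.99 stopped just short of 2-fold, and 3.09% of counted genes were as far down or further. After loess centring it was -1.09, which passes 2-fold. The difference of Ccr2 exceeded that of Cx3cr1 by 3.13, a comparison that median centring leaves as it is. Ccr2 was higher beside the monocyte marker median of 3.74, in which F13a1 at -1.88 went the other way and Chil3 at 5.90 was furthest. Cx3cr1 was lower beside the resident macrophage median of -2.18, in which Vsig4 was furthest at -5.29 and Mertk nearest to 0 at -0.42. The part of either cell type in the receptor values was not tested. The genes with differences nearest to that of Cx3cr1 were Gna11, a G protein alpha subunit, Tmem141 and Serpinf1, a secreted serpin, all at -0.99.

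**Figure D2:**
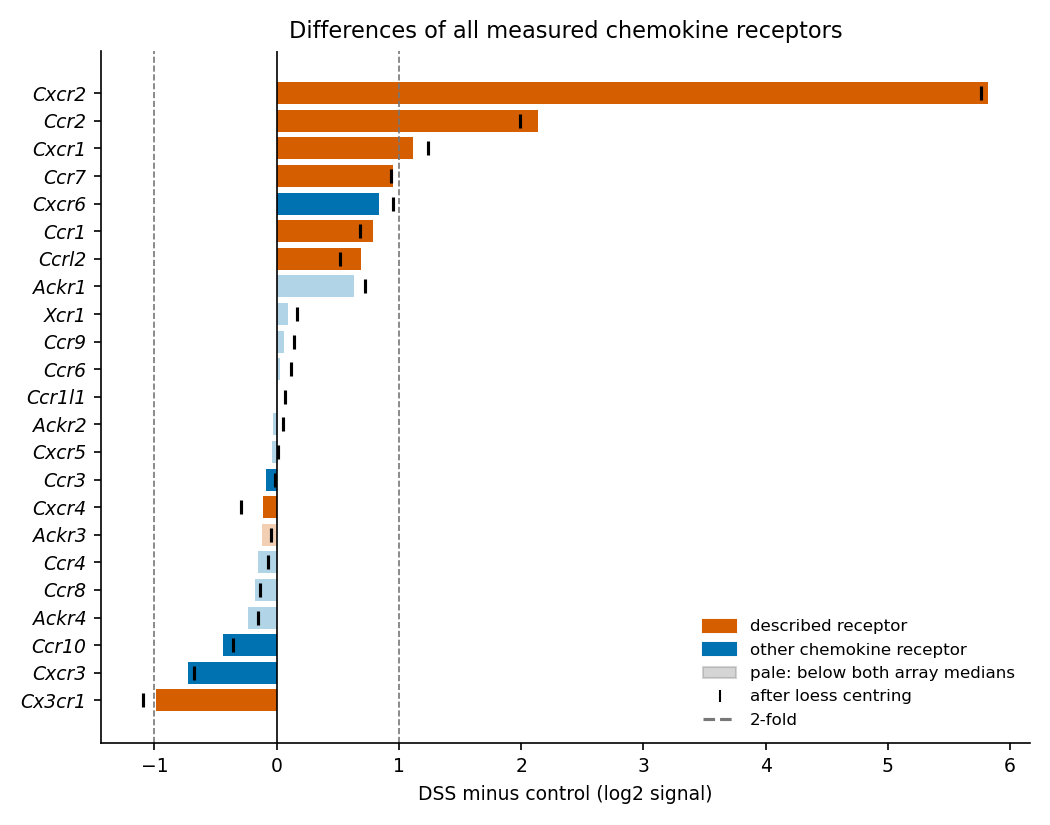
Log2 difference, DSS minus control (x axis), for the 9 described receptors (orange) and the 14 other measured chemokine receptors (blue). Pale bars are receptors under the median on both arrays, black ticks give the value after loess centring and dashed lines mark 2-fold. Cxcr2 at 5.82, Ccr2 at 2.13 and Cxcr1 at 1.12 pass the line, Ccr7 and Cx3cr1 end next to it, and no receptor of the other group reaches it.

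Ccr1, Ccr7 and Ccrl2 were all higher on the DSS array by less than 2-fold. Ccr1 (probe set 10598004), a receptor of monocytes and neutrophils for Ccl3, Ccl5 and related chemokines, read 9.23 and 10.02, which is 1.72-fold. Ccr7 (probe set 10390763), which guides dendritic cells and lymphocytes to lymph nodes, read 7.40 and 8.34. Its difference of 0.95 was 1.03 after median centring, which passes 2-fold, and 0.94 after loess centring. Dendritic cell markers went both ways: of 9 past the signal rule (Ccr7 is among them), 4 had positive and 5 negative differences, with a median of -0.34. Flt3, a growth factor receptor of dendritic cells, had a difference of 0.94, and the plasmacytoid marker Siglech one of -1.44. Fscn1 and Ccl22, which mature dendritic cells express with Ccr7 and which were chosen after their values were seen, had differences of -0.74 and -0.85. The part of dendritic cell RNA in the value of Ccr7 was not tested. Ccrl2 (probe set 10597279) read 11.49 and 12.18, which is 1.61-fold, and 7.72% of counted genes were as far up or further. Its neighbour on chromosome 9, the neutrophil granule gene Ltf, named after its value was seen, read 5.31 and 9.43. Lrrfip2, the neighbour on the other side of Ccrl2, read 8.74 and 8.85.

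Cxcr4 and Ackr3, both receptors for Cxcl12, read nearly alike on the arrays. Cxcr4 (probe set 10357472), which retains leukocytes in bone marrow and tissue, was far above the medians at 12.07 on the control and 11.96 on the DSS array. Its difference of -0.11 was smaller than the SD between probe sets of a gene, and 41.7% of counted genes were as far down or further. After loess centring the difference of Cxcr4 was -0.29, about the size of that SD (0.28). Ackr3 (probe set 10348451) read 4.65 and 4.53, under both medians, so its difference of -0.12 was not counted. Signals under the median can be background, and whether these cells express Ackr3 cannot be read from them.

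Other members of the receptor family were mostly dim. Of 15 genes in the list, 14 had a probe set of their own and 4 passed the signal rule, and the count at 2-fold was 0 in either direction, against 3.99% and 3.03% of all genes. The median difference of the 4 was -0.26. Cxcr6, a receptor of tissue T cells, read 5.55 and 6.38, and Cxcr3, the receptor for Cxcl9, Cxcl10 and Cxcl11, read 7.45 and 6.72. Ccr10 read 6.98 and 6.54, and Ccr3, the eosinophil eotaxin receptor, read 6.90 and 6.81. Ccr1 and Ccr2 lie in a run of chemokine receptor genes on chromosome 9. In gene order along it, Cxcr6 had a difference of 0.83, Xcr1 0.09, Ccr1 0.79, Ccr1l1 0.00, Ccr3 -0.09 and Ccr2 2.13. Xcr1 and Ccr1l1 were under both medians.

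Ligands of the receptors differed in both directions, also among ligands of the same receptor. Of 22 listed, 21 had a probe set of their own (not Ccl21a) and 19 passed the signal rule. At 2-fold or more, 3 were higher (Ccl5, Cxcl3 and Cxcl11) and 3 lower (Ccl7, Ccl2 and Ppbp), against 3.99% and 3.03% of all genes, with a median of -0.30. Among ligands of Cxcr2, Cxcl3 read 8.31 on the control and 10.17 on the DSS array, which is 3.62-fold higher. Ppbp, the platelet chemokine, read 9.14 and 7.50, which is 3.10-fold lower. Cxcl1 and Cxcl2 had differences of -0.46 and 0.12, the latter -0.06 after loess centring, and Cxcl5 was under both medians.

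Both Ccr2 ligands Ccl2 and Ccl7, monocyte attractants made by macrophages themselves, were lower where Ccr2 was higher. Ccl2 read 11.87 on the control and 9.99 on the DSS array, which is 3.70-fold lower. Ccl7 read 10.76 and 8.68, which is 4.24-fold lower, and Ccl12, the third ligand of Ccr2, read 11.33 and 10.79. Ccr1 shares Ccl7 with Ccr2 and also binds Ccl5, which read 8.01 and 10.86. The other Ccr1 ligands Ccl3, Ccl6 and Ccl9 had differences of -0.35, 0.16 and 0.03, and that of Ccl9 was -0.09 after loess centring.

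Cxcl12, the shared ligand of Cxcr4 and Ackr3, had a difference of -0.36. Cxcl11, an interferon-induced ligand of Ackr3 and Cxcr3, read 5.85 and 7.68. Mif, a cytokine that also binds Cxcr4, had differences of 0.60 to 0.62 over its 3 probe sets. Ccl19, a Ccr7 ligand, had 5 probe sets with differences of 0.21 to 0.27, whose near-identical gene copies the probes may not separate. Cx3cl1, which encodes fractalkine, read 5.85 and 5.55, and Rarres2, which encodes the Ccrl2 ligand chemerin, read 8.22 and 7.30. The ligands Ccl4 and Ccl8 had differences of 0.03 and -0.49, that of Ccl4 being -0.10 after loess centring, and Cxcl15 was under both medians.

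**Figure D3:**
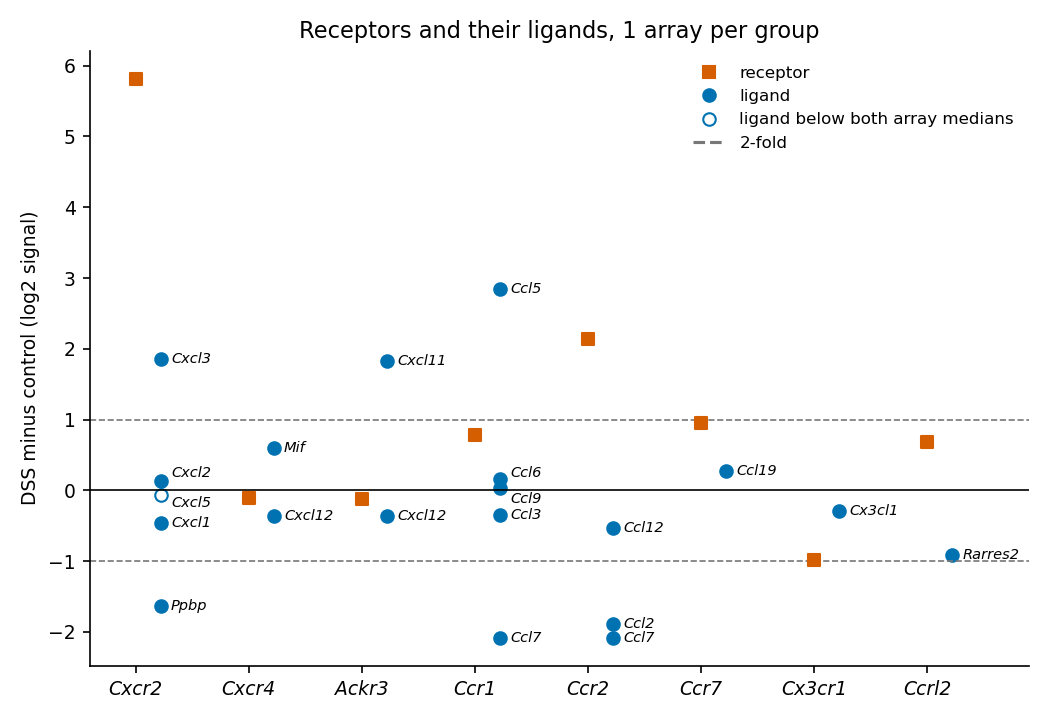
Log2 difference, DSS minus control (y axis), of 8 receptors (squares) and of the ligands assigned to each (circles to the right of the receptor, open where under both array medians). Dashed lines mark 2-fold. Ccr2 lies at 2.13 above its ligands Ccl2 (-1.89), Ccl7 (-2.08) and Ccl12 (-0.54), and the ligands of Cxcr2 spread from -1.63 (Ppbp) to 1.86 (Cxcl3).

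Genes that carry the signal below the receptors reached 2-fold about as rarely as genes in general. Of 31 listed, 27 had a probe set of their own, all of which passed the signal rule, and at 2-fold 1 was higher and 0 were lower, with a median over the list of -0.01 (0.07 after median centring), against 3.99% and 3.03% of all genes. Fgr, a Src family kinase of myeloid cells, read 7.43 and 9.41, which is 3.94-fold higher. The receptor kinase gene Grk5, the exchange factor gene Vav1 and the GTPase gene Rac2, chosen after their values were seen, followed with differences of 0.87, 0.78 and 0.74. Plcb3, a phospholipase C, lay furthest the other way at -0.48. Also chosen after their values were seen, the inhibitory G protein gene Gnai2 read 11.35 and 11.44, Arrb2, a beta-arrestin that ends receptor signalling, read 10.00 and 9.89, and the signalling regulators Rgs1 and Rgs2 had differences of -0.06 and -0.01. The signs of Gnai2, Rgs1 and Rgs2 depend on the centring of the arrays.

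Markers of lymphoid, stromal and epithelial cells had medians nearer to 0 than those of neutrophils and monocytes. Cd3d, Cd3e and Cd3g were under both medians. The 3 T and NK cell markers past the rule had a median of -1.42, the furthest from 0 of these lists. Cd4 and Il7r had differences of -1.65 and -1.42 and Gzma one of 1.68. The 4 B and plasma cell markers had a median of -0.08, with Tnfrsf17 at -1.17 and Mzb1 at 0.49. The 4 eosinophil and mast cell markers had a median of -0.12, with Siglecf at -0.24 and Kit at 0.96. The 5 epithelial markers had a median of 0.35, with Car1 at 0.83 and Lgals4 at -0.10. The 7 fibroblast and endothelial markers had a median of -0.27, with Pecam1 at 0.85 and Lyve1, also a resident macrophage marker, at -3.61.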

How the data were processed

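Gene expression was measured in sorted colonic macrophages on 1 array per group. The authors deposited log2 signals for 35556 probe sets, and RMA (background correction, quantile normalisation and probe summary) is named in the submitters' processing notes. Not given in the sources used here are its settings and version, the array design and the genome build. RMA compresses differences between dim probe sets. The table holds no detection calls, and the number of arrays limits the precision. Scan or hybridisation batch cannot be told apart from treatment.

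Probe sets with 1 symbol in the platform annotation (21789; 1621 had several and were not used to name genes) gave 19938 genes, and where several name a gene the brightest on average was used. Of these probe sets, 21698 matched the RefSeq gene table of GRCm38.p6 by Entrez identifier, all with the same symbol. Array medians used the 28939 probe sets with identifiers in the annotated range. A gene was counted when at least 1 array was at or above its median, and the size counted was 2-fold. Differences are DSS minus control, as deposited. The members, the gene lists and the naming rule were chosen with earlier results of these data known. Every receptor is named. Among other receptors, ligands and signalling genes, those at 2-fold or more and furthest each way are named, and of each marker list those furthest apart. Any other gene named was chosen after its values were seen or for its place beside a receptor. The 3 genes nearest in difference were taken for the receptor furthest in each direction, without predicted genes. The calculation was tested on simulated data with 200 changed genes, all at or above the median of the control array. That test did not cover genes under this median, such as Cxcr1 and Cxcr2. Python 3.11.15, numpy 2.4.6, pandas 2.3.3, statsmodels 0.14.6 and matplotlib 3.10.9 were used.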

Additional observations from a re-analysis of the deposited data

How the results depend on the processing

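No paired analysis was possible because each group has 1 array. Alternatives were median centring, loess centring (span of 0.4), the mean of a gene's probe sets, no signal rule, a rule on both arrays, a floor at the 25th percentile, sizes of 1.5-fold and 3-fold, and the mean in place of the median. A floor at each array's median was added after seeing the data. Many of the 45 values of single receptors under the alternatives could hardly move, so their count says little about stability. Each receptor has 1 probe set, so the mean of probe sets left it as it was. Median centring shifts all genes alike, and the floors change only dim signals. Of the 45 values, 44 moved by less than the SD between probe sets of a gene. The exception was Cxcr1, at 0.74 with the floor at the array medians, which left 2 receptors and 405 of all genes higher by 2-fold or more. Ccr7 passed 2-fold under median centring, for 4 higher receptors, where 522 of all genes were higher and 290 lower (445 and 338 as reported). Cx3cr1 passed it under loess centring, for 1 lower receptor, where 325 of all genes were lower. With the rule on both arrays, which drops Cxcr1 and Cxcr2 by construction, 1 receptor (Ccr2) and 331 of all genes were at least 2-fold higher. That rule keeps fewer than the 11163 genes counted elsewhere, so the 331 cannot be set against 3.99%. At 1.5-fold, 6 receptors were higher and 1 was lower, with 1100 and 982 of all genes. At 3-fold, 2 receptors (Cxcr2 and Ccr2) were higher and 0 were lower, with 183 and 118 of all genes. The mean difference over the receptors was 1.30 against a median of 0.87. Signals under the array medians limit Cxcr1, Cxcr2 on the control array, and Ackr3.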
